A study of Rattus norvegicus with 9 samples.

Results

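ATP-binding cassette (ABC) genes were followed in rat liver cells on Affymetrix arrays, as the 43 genes, of 14497 measured, whose symbol joins Abc, a subfamily letter from a to g and a number. The current rat gene table holds 54 protein-coding genes of that form. The other 11 were not analysed here. All cells came from untreated rats of strain F344, with 1 array for each of 9 RNA preparations that the labels call biological replicates. Adult hepatocytes were released by collagenase perfusion from livers of rats aged 5 to 6 weeks (3 arrays). The other arrays held cells of fetal liver at embryonic day 19, immunopurified after collagenase digestion with antibodies against leucine aminopeptidase (LAP) and against OC.2, a ductal antigen according to the labels. The labels name 3 of these preparations LAP+/OC.2- and 3 LAP+/OC.2+, written OC.2- and OC.2+ below. The same selection of double positive cells is described for all fetal samples, and the OC.2+ samples also carry the short name LAP-OC2+, so this division rests on titles and cell type labels. The sources used here do not give sex or whether animals were pooled, so p-values measure the spread between these preparations. Adult and fetal preparations differed in both age and isolation, and these cannot be told apart here.

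ABC proteins bind and hydrolyse ATP, and most use that energy to move lipids, bile constituents, drugs, peptides or metabolites across a membrane. In the hepatocyte they are divided between membranes. Those of the canalicular membrane drive bile formation, others face the blood, and further ones serve mitochondria, lysosomes and peroxisomes. Members of the ABCE and ABCF subfamilies have the ATP-binding domains but no membrane part, and act in translation. The values below are log2 of the deposited intensity, differences are log2 differences ± SE or folds with 95% intervals, and a gene is called at a limma adjusted p (Benjamini-Hochberg, over all 14497 genes) under 0.05. The arrays' medians over all rows were 6.31 to 6.49. No detection call came with the values, so a level near or below these medians does not show whether a gene was expressed, and a fold down to it may be understated.

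Between the fetal groups, 9 of the 43 genes had higher and 11 had lower levels in OC.2+ cells, where 38.5% of all genes were called (20.3% higher and 18.2% lower). OC.2- cells had 13 members higher and 17 lower than adult hepatocytes, beside 44.5% of all genes called (23.7% higher and 20.9% lower). OC.2+ cells had 15 members higher and 16 lower than adult hepatocytes, beside 55.4% of all genes called (32% higher and 23.4% lower). The splits moved with the scaling in each comparison. Between the fetal groups they were 10 higher and 12 lower after quantile normalization. Median centring gave 8 and 11, and cyclic loess 7 and 13. For OC.2- cells against adult hepatocytes they were 10 higher and 17 lower after quantile normalization, and 10 and 19 after median centring or cyclic loess. For OC.2+ cells against adult hepatocytes they were 12 and 17, and 10 and 18. The share of members called was 46.5%, 69.8% and 72.1%. With a difference of at least 2-fold as well, 7 members (1 higher, 6 lower) passed between the fetal groups, where 10.3% of all genes did (3.69% higher and 6.63% lower). Against adult hepatocytes 12 (4 higher, 8 lower) passed in OC.2- cells, beside 10.6% of all genes (4.06% higher and 6.58% lower). In OC.2+ cells 15 (5 higher, 10 lower) passed, beside 19% of all genes (7.82% higher and 11.1% lower). The members' median differences were 0.01, 0.06 and 0.05, and those of all genes 0.04, 0.07 and 0.11. Each pair of these comparisons shares 3 arrays, so their values are given side by side and not set against each other.

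**Figure D1:**
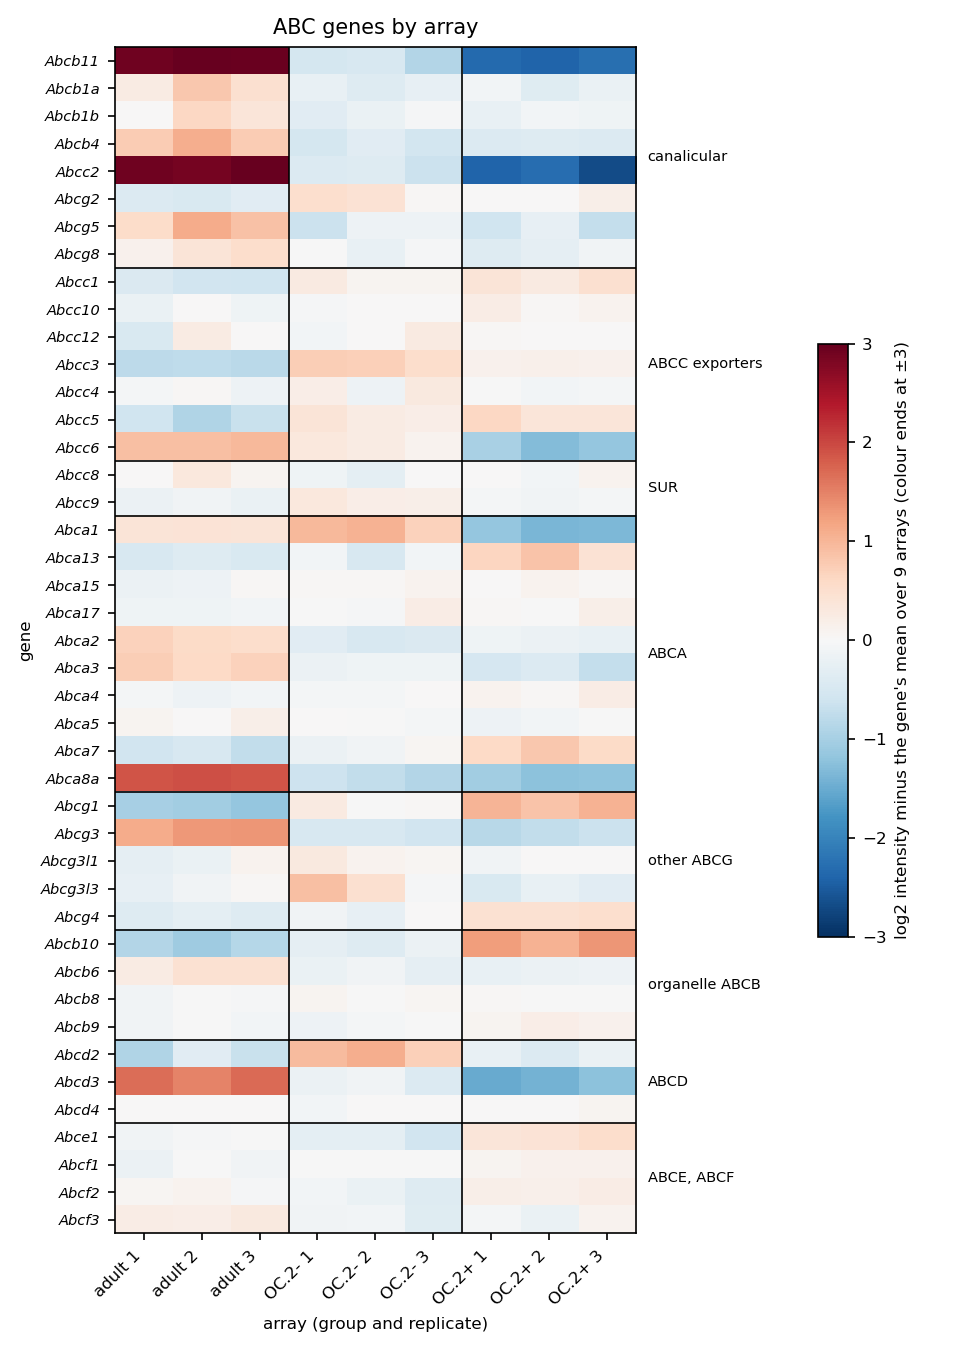
Log2 intensity of each of the 43 genes (rows, grouped by role, SUR for sulfonylurea receptors) on each of the 9 arrays (columns), as the deviation from that gene's mean over the 9 arrays. Abcb11 and Abcc2 are highest in the adult columns, Abcb10 and Abcg1 are highest in the OC.2+ columns and Abcd2 in the OC.2- columns.

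The cell markers of the 3 groups differed, and this bears on every comparison. All 10 hepatocyte markers were lower in OC.2+ compared with OC.2- cells, and their summed intensity was 85729 to 92919 in adult hepatocytes, 78458 to 85096 in OC.2- cells and 33869 to 37585 in OC.2+ cells. In OC.2- cells 1 of these markers was higher and 3 were lower than in adult hepatocytes. Those counts were 2 and 6 after quantile normalization, 1 and 6 after median centring, and 1 and 8 after cyclic loess. Albumin measured 14.01 to 14.19 in adult hepatocytes, 14.03 to 14.19 in OC.2- cells and 13.74 to 13.85 in OC.2+ cells. All 10 erythroid markers measured were higher in OC.2+ compared with OC.2- cells and in OC.2- cells than in adult hepatocytes, with sums of 744 to 848, 13005 to 16175 and 37580 to 37777 in the same order of groups. Of 11 granulocyte markers 10 were higher in OC.2+ compared with OC.2- cells, with sums of 597 to 668, 682 to 764 and 19230 to 21735. All 6 endothelial and all 9 stellate and mesenchymal markers measured were lower in OC.2+ compared with OC.2- cells. The endothelial sums were 660 to 862, 3286 to 4416 and 563 to 575, and the stellate sums 971 to 1070, 2683 to 3129 and 1033 to 1081. Of 11 macrophage markers 3 were lower in OC.2+ compared with OC.2- cells and 7 were higher and 2 lower in OC.2- cells than in adult hepatocytes, with sums of 1235 to 1366, 2256 to 2933 and 1758 to 2100. All 4 megakaryocyte markers measured were higher in OC.2+ compared with OC.2- cells, with sums of 403 to 443, 553 to 609 and 1388 to 1588. Of 7 biliary markers 1 was higher and 1 lower between the fetal groups. No marker was listed at 0 on any array. The part of these cell types in the differences of ABC genes was not tested, and in RNA of whole preparations fewer cells of a type and less RNA per cell cannot be told apart.

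The canalicular transporters separated adult from fetal cells. Of the 8 measured, 7 were lower and 1 was higher in OC.2- cells than in adult hepatocytes, and the counts were the same for OC.2+ cells. Between the fetal groups 2 were lower and 0 higher. Their median difference was -0.98 in OC.2- cells against adult hepatocytes, -1.001 in OC.2+ cells, also against adult hepatocytes, and -0.19 between the fetal groups, beside 0.07, 0.11 and 0.04 over all genes. Quantile normalization and median centring gave these counts again, and cyclic loess added Abcg2 to the lower ones between the fetal groups. Lower calls made up 20.9% and 23.4% of all genes in OC.2- and OC.2+ cells against adult hepatocytes and 18.2% between the fetal groups.

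Abcb11, the bile salt export pump, had log2 intensities of 11.44, 11.53 and 11.47 in adult hepatocytes, 7.98, 8.04 and 7.62 in OC.2- cells and 6.18, 6.11 and 6.24 in OC.2+ cells. The 3 groups formed steps that did not overlap, and the OC.2+ arrays lay below the array medians. Its level was 12.1-fold lower in OC.2- cells than in adult hepatocytes (95% interval 10.4 to 14.1, adjusted p = 2.13e-11) and 3.25-fold lower in OC.2+ compared with OC.2- cells (95% interval 2.79 to 3.80, adjusted p = 2.54e-08). Against adult hepatocytes OC.2+ cells were 39.4-fold lower (95% interval 33.7 to 46.0).

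Abcc2, which exports bilirubin glucuronides and other conjugates into bile, had values of 11.77, 11.73 and 11.89 in adult hepatocytes, 8.46, 8.49 and 8.21 in OC.2- cells and 6.46, 6.59 and 6.17 in OC.2+ cells. Again the groups were stacked without overlap, adult highest and OC.2+ lowest. The difference was 10.6-fold lower in OC.2- cells than in adult hepatocytes (95% interval 8.95 to 12.6, adjusted p = 8.55e-11), 3.96-fold lower in OC.2+ compared with OC.2- cells (95% interval 3.34 to 4.69, adjusted p = 1.44e-08) and 41.9-fold lower in OC.2+ cells than in adult hepatocytes (95% interval 35.4 to 49.7).

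The stretch before the start of Abcc2, chosen after its values were seen, is shown because it belongs to a canalicular gene that was lower in both fetal groups. It holds the nuclear receptor element AGGTCA 2 times (capitals), as AGGTCA and as its reverse complement TGACCT. RefSeq gives it for build GRCr8, plus strand, at chr1:252613625-252613874, 5′ to 3′.
Abcc2: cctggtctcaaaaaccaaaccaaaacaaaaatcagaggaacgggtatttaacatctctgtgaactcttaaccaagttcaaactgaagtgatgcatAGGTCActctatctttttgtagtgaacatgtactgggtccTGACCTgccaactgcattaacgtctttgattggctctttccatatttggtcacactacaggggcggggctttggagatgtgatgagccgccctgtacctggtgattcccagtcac
Promoter windows were found for 35 of the 43 genes. In the 250 bases before the start, AGGTCA on either strand occurred in 6 of these 35 (17.1%) and in 14.1% of the 33469 windows of the table. It was absent from the windows of Abcb4, Abcb1a, Abcb1b, Abcg5 and Abcg8, also lower in both fetal groups, and Abcb11 had no window. The other carriers were Abca15, Abcb6, Abcb8, Abcd2 and Abcg4, of which only Abcb6 was lower in both fetal groups than in adult hepatocytes. AGATAA, the element read by GATA factors, occurred in 3 (8.57%, against 10.3%). CANGTG, a part of the E-box forms CANNTG, occurred in 17 (48.6%, against 38.4%). Other forms of the E-box were neither counted nor marked. None of these elements overlaps another in the windows printed here, and a match in letters is not evidence of binding.

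Abcb4, the floppase that supplies phosphatidylcholine to bile, had log2 intensities of 9.12, 9.45 and 9.12 in adult hepatocytes, 7.84, 8.03 and 7.81 in OC.2- cells and 7.95, 7.98 and 7.94 in OC.2+ cells. The adult arrays lay above all fetal arrays and the fetal groups overlapped. It was 2.53-fold lower in OC.2- cells (95% interval 2.17 to 2.94, adjusted p = 1.95e-07) and 2.41-fold lower in OC.2+ cells (95% interval 2.08 to 2.81, adjusted p = 1.47e-07) than in adult hepatocytes. The difference between OC.2+ and OC.2- cells was 0.07 ± 0.10 (adjusted p = 0.683), with a 95% interval of -0.15 to 0.28 that covers none of the falls of Abcb11 and Abcc2.

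Abcb1a and Abcb1b, the rodent forms of the drug efflux pump P-glycoprotein, are close relatives of Abcb4 and can share probe signal with each other. Abcb1a measured 7.01, 7.56 and 7.23 in adult hepatocytes, 6.54, 6.37 and 6.50 in OC.2- cells and 6.66, 6.38 and 6.56 in OC.2+ cells. Abcb1b measured 6.26, 6.87 and 6.61, then 5.91, 6.04 and 6.21, then 6.02, 6.18 and 6.13 in the same groups. In both genes every adult array lay above every fetal array, and the fetal groups overlapped. Abcb1a was 1.73-fold lower in OC.2- cells (95% interval 1.44 to 2.09, adjusted p = 0.000172) and 1.66-fold lower in OC.2+ cells (95% interval 1.37 to 2.00, adjusted p = 0.000237). Abcb1b was 1.44-fold (adjusted p = 0.00586) and 1.39-fold lower (adjusted p = 0.00885).

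Abcg5 and Abcg8 form the dimer that exports cholesterol and plant sterols into bile. Abcg5 had values of 7.38, 7.94 and 7.70 in adult hepatocytes, 6.18, 6.67 and 6.67 in OC.2- cells and 6.23, 6.57 and 6.10 in OC.2+ cells. For Abcg8 they were 6.51, 6.79 and 6.92, then 6.39, 6.17 and 6.35, then 6.00, 6.12 and 6.27. Each gene was higher on every adult than on every fetal array, with overlapping fetal groups. Abcg5 was 2.25-fold lower in OC.2- cells (95% interval 1.75 to 2.90, adjusted p = 8.17e-05) and 2.59-fold lower in OC.2+ cells (95% interval 2.01 to 3.34, adjusted p = 1.18e-05) than in adult hepatocytes. The folds for Abcg8, whose fetal values lay at or below the array medians, were 1.35 (adjusted p = 0.00675) and 1.52 (adjusted p = 0.000479).

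The genes of this dimer stand head to head, and 205 bases separate their starts. This stretch, also chosen after the values were seen, is shown because it lies before both genes, and both were lower in the fetal groups. It holds AGATAA 2 times (capitals). Motif counts given above take the pair's windows as separate, although the 250 bases counted before each start both include these 205 bases. RefSeq places the stretch in GRCr8 at chr6:15717731-15717935, plus strand, reading 5′ to 3′ toward Abcg5.
Abcg5 and Abcg8: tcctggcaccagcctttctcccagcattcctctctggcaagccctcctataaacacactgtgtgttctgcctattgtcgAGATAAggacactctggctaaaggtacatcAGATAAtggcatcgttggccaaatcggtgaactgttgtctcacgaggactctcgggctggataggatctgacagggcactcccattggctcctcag

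Abcg2, which exports drugs, urate and porphyrins, went the other way. Its values were 6.58, 6.53 and 6.65 in adult hepatocytes, 7.50, 7.40 and 7.02 in OC.2- cells and 6.99, 6.98 and 7.17 in OC.2+ cells. The adult arrays were the lowest, and the fetal groups overlapped through OC.2- replicate 3. It was 1.65-fold higher in OC.2- cells (95% interval 1.39 to 1.95, adjusted p = 0.000183) and 1.37-fold higher in OC.2+ cells (95% interval 1.16 to 1.63, adjusted p = 0.00408) than in adult hepatocytes. Between the fetal groups the difference was -0.26 ± 0.11 (adjusted p = 0.0946). It passed without OC.2- replicate 3, at -0.40 (adjusted p = 0.00305), and with cyclic loess, at -0.34 (adjusted p = 0.0376).

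**Figure D2:**
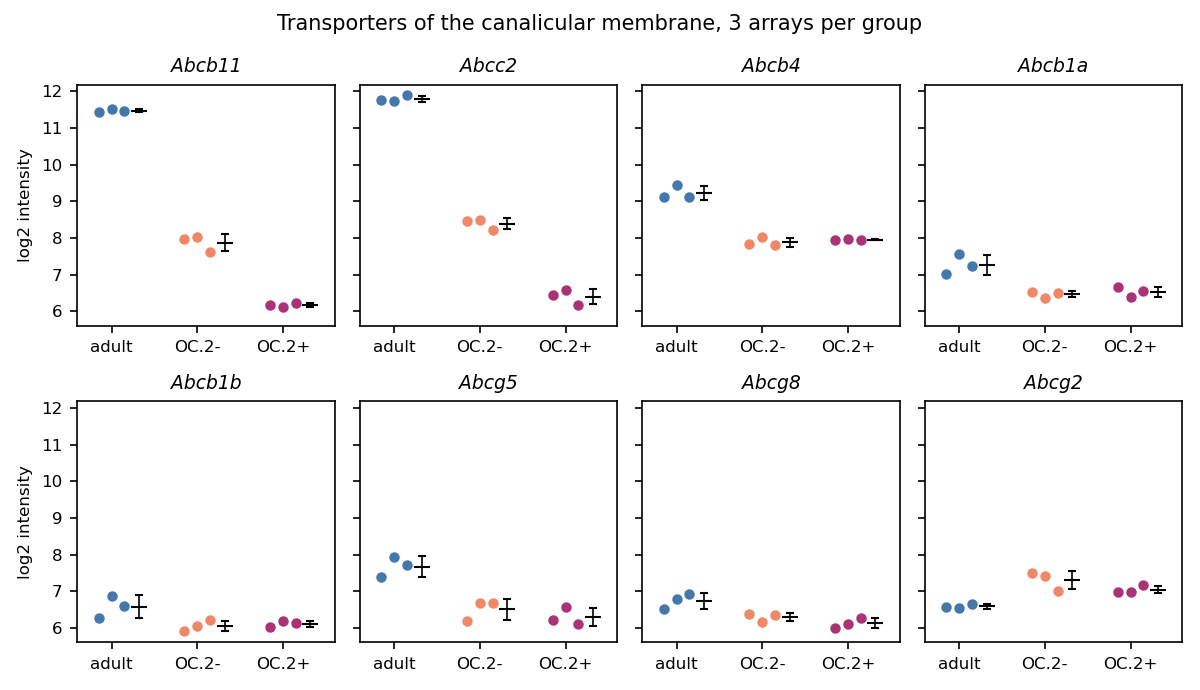
Log2 intensity (vertical axis) of the 8 canalicular transporters in adult, OC.2- and OC.2+ preparations, with 1 point per array and the mean ± SD of 3 arrays beside them. Abcb11 and Abcc2 descend in steps over the 3 groups, the fetal groups overlap in the other 6 genes, and Abcg2 is lowest in adult hepatocytes.

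The partners of bile transport were read on the same arrays. Of 5 measured uptake and basolateral transporters, 4 were lower and 0 higher in OC.2- cells than in adult hepatocytes, the same counts held for OC.2+ cells, and 2 were lower between the fetal groups. Beside them, 20.9%, 23.4% and 18.2% of all genes were lower. Slc10a1, the sodium-dependent bile acid importer, measured 12.43, 12.45 and 12.44 in adult hepatocytes, 9.20, 9.54 and 9.14 in OC.2- cells and 7.12, 6.58 and 6.68 in OC.2+ cells. The groups did not overlap, and it was 8.86-fold lower in OC.2- cells than in adult hepatocytes (adjusted p = 1.0e-09) and 5.65-fold lower in OC.2+ compared with OC.2- cells (adjusted p = 1.0e-08). The organic anion importer Slco1b2 was 5.46-fold (adjusted p = 3.87e-09) and 6.86-fold (adjusted p = 1.54e-09) lower in the same comparisons. Slco1a4, a related importer, was 33.8-fold lower in OC.2- cells than in adult hepatocytes (adjusted p = 8.94e-12), and its fetal groups differed by 0.06 ± 0.13 (adjusted p = 0.783).

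Of 9 measured genes that build or supply the canalicular membrane, 7 were lower and 1 higher in OC.2+ compared with OC.2- cells, and 4 were lower and 1 higher in OC.2- cells than in adult hepatocytes. Atp8b1, the flippase that keeps the canalicular membrane resistant to bile salts, measured 7.34, 7.13 and 7.36 in adult hepatocytes, 7.08, 7.25 and 6.97 in OC.2- cells and 5.95, 5.88 and 6.24 in OC.2+ cells. Adult and OC.2- arrays overlapped, and all OC.2+ arrays lay below them. It was 2.11-fold lower in OC.2+ compared with OC.2- cells (95% interval 1.78 to 2.50, adjusted p = 4.19e-06), and the difference between OC.2- cells and adult hepatocytes was -0.18 ± 0.11 (adjusted p = 0.219). The scaffolds Nherf1 and Pdzk1 were 2.58-fold (adjusted p = 5.63e-07) and 2.36-fold (adjusted p = 6.12e-06) lower in OC.2+ compared with OC.2- cells, and Rab11a, a small GTPase of recycling endosomes, 2.19-fold lower (adjusted p = 5.49e-08).

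All 10 measured nuclear receptors and liver factors that are known to act on transporter genes were lower in OC.2+ cells than in adult hepatocytes. In OC.2- cells 9 were lower and 1 higher than in adult hepatocytes, and 7 were lower in OC.2+ compared with OC.2- cells. Of all genes, 23.4%, 20.9% and 18.2% were lower in these comparisons. Hnf4a is also on the hepatocyte marker list, so the 2 lists are not separate. Nr1h4, the bile acid receptor FXR, which is known to activate Abcb11, measured 9.17, 9.73 and 9.58 in adult hepatocytes, 7.60, 7.72 and 7.50 in OC.2- cells and 5.66, 5.76 and 5.76 in OC.2+ cells. These groups were stacked without overlap. It was 3.69-fold lower in OC.2- cells than in adult hepatocytes (adjusted p = 5.79e-08) and 3.68-fold lower in OC.2+ compared with OC.2- cells (adjusted p = 5.78e-08). Ppara, the fatty acid receptor, Hnf4a, a regulator of hepatocyte identity, and Nr5a2, a regulator of bile acid genes, were 6.15-fold (adjusted p = 4.64e-09), 6.06-fold (adjusted p = 3.63e-10) and 4.51-fold (adjusted p = 2.16e-09) lower in OC.2+ compared with OC.2- cells. Ppara was the 1 that was higher in OC.2- cells than in adult hepatocytes, at 1.83-fold (adjusted p = 0.000121).

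The remaining ABCC exporters, of which several face the blood, followed other orders. Of 7 measured, 3 were higher and 1 lower in OC.2- cells than in adult hepatocytes, 4 higher and 1 lower in OC.2+ cells than in adult hepatocytes, and 2 lower between the fetal groups. In the same order, 23.7% of all genes were higher and 20.9% lower, 32% and 23.4%, and 20.3% and 18.2%. Abcc3, a basolateral exporter of conjugates, measured 6.11, 6.16 and 6.09 in adult hepatocytes, 7.64, 7.61 and 7.44 in OC.2- cells and 7.03, 7.05 and 7.03 in OC.2+ cells. The OC.2- arrays were highest and the adult arrays lowest, without overlap. It was 2.73-fold higher in OC.2- cells (95% interval 2.43 to 3.06, adjusted p = 6.87e-09) and 1.89-fold higher in OC.2+ cells (adjusted p = 2.63e-07) than in adult hepatocytes, and 1.45-fold lower in OC.2+ compared with OC.2- cells (adjusted p = 8.0e-05).

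Abcc5, an exporter of nucleotides, measured 6.26, 5.95 and 6.18 in adult hepatocytes, 7.24, 7.11 and 7.06 in OC.2- cells and 7.47, 7.23 and 7.22 in OC.2+ cells. Both fetal groups lay above the adult arrays and overlapped each other. Its folds over adult hepatocytes were 2.01 (adjusted p = 3.45e-06) and 2.26 (adjusted p = 3.94e-07). Abcc6, the hepatocyte transporter whose loss causes ectopic calcification, measured 8.89, 8.91 and 8.96 in adult hepatocytes, 8.32, 8.24 and 8.11 in OC.2- cells and 7.02, 6.70 and 6.83 in OC.2+ cells. The groups descended without overlap. Abcc6 was 1.62-fold lower in OC.2- cells than in adult hepatocytes (adjusted p = 4.53e-05) and 2.59-fold lower in OC.2+ compared with OC.2- cells (95% interval 2.25 to 2.98, adjusted p = 8.02e-08).

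Abcc4 was called in no comparison by its brightest probe set, and its 3 probe sets disagreed. Against adult hepatocytes OC.2- cells differed by 0.17 ± 0.11, -0.45 ± 0.11 and -0.16 ± 0.07, so no direction is given for this basolateral exporter. Without OC.2- replicate 2 the brightest passed between the fetal groups at -0.28 (adjusted p = 0.0251) and against adult hepatocytes at 0.30 (adjusted p = 0.0177). Abcc1, another basolateral exporter of conjugates, measured 6.32, 6.18 and 6.16 in adult hepatocytes, 7.02, 6.84 and 6.84 in OC.2- cells and 7.12, 7.01 and 7.23 in OC.2+ cells. Both fetal groups lay above the adult arrays, and they overlapped each other. It was 1.60-fold (adjusted p = 3.2e-05) and 1.86-fold (adjusted p = 1.26e-06) higher than in adult hepatocytes. The difference of Abcc1 between the fetal groups, 0.22 ± 0.09 (adjusted p = 0.0652), passed under 4 of 16 alternatives. Abcc10 ranged from 6.43 to 6.86, and its rise of 0.23 ± 0.08 in OC.2+ cells over adult hepatocytes (adjusted p = 0.0332) ended under 8 of 16 alternatives, the 3 other scalings among them (adjusted p = 0.266 to 0.474). It ended as well with the replicate block (adjusted p = 0.0585) and without adult replicate 1 (adjusted p = 0.123) or adult replicate 3 (adjusted p = 0.0794), and when OC.2+ replicate 1 (adjusted p = 0.124) or replicate 3 (adjusted p = 0.0702) was left out. Abcc8 and Abcc9, the sulfonylurea receptors of potassium channels, stayed between 5.87 and 6.52. By its brightest probe set, Abcc9 was 1.31-fold higher in OC.2- cells than in adult hepatocytes (adjusted p = 0.000691). The same probe set was 1.23-fold lower in OC.2+ compared with OC.2- cells (adjusted p = 0.00437). The other Abcc9 probe set was not called in OC.2- cells against adult hepatocytes, at 0.19 ± 0.10 (limma p adjusted over all rows = 0.195).

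The ABCA genes, which move lipids, were called in both directions. Of 10 measured, 3 were higher and 3 lower in OC.2+ compared with OC.2- cells, 2 higher and 3 lower in OC.2- cells than in adult hepatocytes, and 3 higher and 4 lower in OC.2+ cells than in adult hepatocytes. Each of the 3 other scalings gave 2 higher and 4 lower, and 2 higher and 5 lower, against adult hepatocytes, with Abca5 added to the lower ones. Of all genes, 20.3% were higher and 18.2% lower between the fetal groups. Against adult hepatocytes the shares were 23.7% and 20.9% in OC.2- cells and 32% and 23.4% in OC.2+ cells. The list's medians were 0.00, 0.11 and -0.01. Abca1, which loads cholesterol and phospholipid onto apolipoprotein A-I, measured 9.04, 9.05 and 9.04 in adult hepatocytes, 9.63, 9.69 and 9.35 in OC.2- cells and 7.49, 7.27 and 7.31 in OC.2+ cells. Here the OC.2- arrays were highest and the OC.2+ arrays lowest, without overlap. Abca1 had the largest fall of the 43 genes between the fetal groups, 4.59-fold (95% interval 3.96 to 5.31, adjusted p = 1.66e-09). It was 1.43-fold higher in OC.2- cells than in adult hepatocytes (adjusted p = 0.000782).

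Its promoter stretch is shown as that of the member with the largest fall. It holds CANGTG 1 time (capitals) and neither of the other elements, and lies in GRCr8 at chr5:72596474-72596723, minus strand, printed 5′ to 3′ along the gene.
Abca1: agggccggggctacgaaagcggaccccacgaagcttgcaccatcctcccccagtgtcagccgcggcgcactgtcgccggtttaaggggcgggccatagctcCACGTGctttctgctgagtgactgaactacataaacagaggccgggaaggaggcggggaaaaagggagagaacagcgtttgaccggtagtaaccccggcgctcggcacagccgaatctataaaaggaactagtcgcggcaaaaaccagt

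Abca8a, an ABCA member of liver and other tissues, measured 9.38, 9.42 and 9.37 in adult hepatocytes, 6.86, 6.75 and 6.60 in OC.2- cells and 6.44, 6.26 and 6.29 in OC.2+ cells. Adult arrays stood far above both fetal groups, which did not overlap either. It was 6.30-fold lower in OC.2- cells than in adult hepatocytes (95% interval 5.53 to 7.17, adjusted p = 6.96e-11) and 1.33-fold lower in OC.2+ compared with OC.2- cells (adjusted p = 0.00172). Abca3, known for lipid packing in lamellar bodies of the lung, measured 7.77, 7.61 and 7.72, then 6.85, 6.90 and 6.89, then 6.51, 6.62 and 6.31 in adult, OC.2- and OC.2+ preparations. It was 1.76-fold lower in OC.2- cells than in adult hepatocytes (adjusted p = 6.35e-06) and 1.32-fold lower in OC.2+ compared with OC.2- cells (adjusted p = 0.00257). Both genes thus ran from adult down to OC.2+.

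Abca2, a lysosomal and endosomal lipid transporter, measured 7.36, 7.23 and 7.19 in adult hepatocytes, 6.32, 6.19 and 6.22 in OC.2- cells and 6.53, 6.50 and 6.44 in OC.2+ cells. It was 2.02-fold lower in OC.2- cells than in adult hepatocytes (adjusted p = 2.38e-07). Its rise of 0.24 ± 0.08 from OC.2- to OC.2+ cells (adjusted p = 0.0238) was small and ended with cyclic loess (adjusted p = 0.0881) and without OC.2+ replicate 1 (adjusted p = 0.0811), OC.2+ replicate 2 (adjusted p = 0.0614) and likewise when OC.2- replicate 2 was left out (adjusted p = 0.0820).

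Abca7 and Abca13 were highest in the OC.2+ cells. Abca7, a lipid transporter known from phagocytosis and from haematopoietic tissue, measured 6.14, 6.22 and 5.96 in adult hepatocytes, 6.54, 6.60 and 6.77 in OC.2- cells and 7.30, 7.52 and 7.29 in OC.2+ cells. The groups ascended without overlap, by 1.44-fold from adult to OC.2- (adjusted p = 0.000727) and 1.67-fold from OC.2- to OC.2+ cells (adjusted p = 4.7e-05). Abca13, one of the largest members by protein size, measured 5.65, 5.74 and 5.66, then 6.05, 5.66 and 6.05, then 6.78, 6.98 and 6.56. Adult and OC.2- arrays, all below the array medians, overlapped, and OC.2+ arrays lay above them, 1.80-fold higher than OC.2- cells (95% interval 1.50 to 2.17, adjusted p = 8.57e-05). Granulocyte, erythroid and megakaryocyte marker sums were also highest on the OC.2+ arrays, and their part in these rises was not tested.

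Of 5 measured ABCG genes outside the canalicular list, 4 were higher and 1 lower in OC.2- cells than in adult hepatocytes, but 1 and 1 under each of the 3 other scalings, where the calls of Abcg4, Abcg3l1 and Abcg3l3 ended. Between the fetal groups 2 were higher and 1 lower. Shares of all genes were 23.7% higher and 20.9% lower in the former comparison, and 20.3% and 18.2% in the latter. Abcg1, which exports cholesterol to high-density lipoprotein, measured 6.76, 6.71 and 6.60 in adult hepatocytes, 8.02, 7.74 and 7.79 in OC.2- cells and 8.78, 8.62 and 8.79 in OC.2+ cells. Its groups ascended without overlap. It was 2.23-fold higher in OC.2- cells than in adult hepatocytes (95% interval 1.94 to 2.57, adjusted p = 4.07e-07), 1.84-fold higher in OC.2+ compared with OC.2- cells (95% interval 1.60 to 2.12, adjusted p = 5.55e-06) and 4.11-fold higher in OC.2+ cells than in adult hepatocytes (95% interval 3.56 to 4.73). Nr1h3, the oxysterol receptor LXR alpha that is known to activate Abca1, Abcg1, Abcg5 and Abcg8, measured 9.99, 9.89 and 9.89 in adult hepatocytes, 8.61, 8.64 and 8.46 in OC.2- cells and 7.40, 6.74 and 6.71 in OC.2+ cells. Adult arrays were highest for this receptor, which was chosen for mention after its values were seen.

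Abcg3, a rodent member of the subfamily with near relatives in the same gene cluster, measured 8.03, 8.24 and 8.25 in adult hepatocytes, 6.46, 6.45 and 6.35 in OC.2- cells and 6.10, 6.20 and 6.28 in OC.2+ cells. Adult arrays were far above both fetal groups. It was 3.37-fold lower in OC.2- cells (95% interval 2.96 to 3.83, adjusted p = 3.33e-09) and 3.94-fold lower in OC.2+ cells (95% interval 3.46 to 4.49, adjusted p = 3.32e-10) than in adult hepatocytes. Its difference between the fetal groups, -0.23 ± 0.09, missed the threshold (adjusted p = 0.0538). It passed under 7 of 16 alternatives, among them without adult replicate 1 (adjusted p = 0.0378), with OC.2+ replicate 3 left out (adjusted p = 0.0467) and with OC.2- replicate 3 left out (adjusted p = 0.0466), over a range of 0.0117 to 0.191. One further probe set is assigned to Abcg3 together with Abcg3l2 and Abcg3l4 and was not used here, and signal shared between these relatives cannot be separated.

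Of the 4 measured ABC genes of mitochondria and lysosomes, Abcb10 and Abcb9 were higher and 0 lower in OC.2+ compared with OC.2- cells. Of all genes, 20.3% were higher there. The call of the lysosomal peptide transporter Abcb9, 0.20 ± 0.07 (adjusted p = 0.0468), ended under 12 of 15 alternatives (adjusted p up to 0.176), and its values of 5.94 to 6.29 lay below the array medians. Abcb10, a transporter of the inner mitochondrial membrane needed for haem synthesis in red-cell precursors, measured 6.70, 6.51 and 6.70 in adult hepatocytes, 7.31, 7.19 and 7.38 in OC.2- cells and 8.83, 8.61 and 8.88 in OC.2+ cells. The 3 groups ascended without overlap. Abcb10 had the largest rise of the 43 genes between the fetal groups, 2.79-fold (95% interval 2.42 to 3.22, adjusted p = 4.53e-08), and was 1.57-fold higher in OC.2- cells than in adult hepatocytes (95% interval 1.36 to 1.82, adjusted p = 8.95e-05). In OC.2+ cells it was 4.40-fold higher than in adult hepatocytes (95% interval 3.81 to 5.07). Abcb6, linked to porphyrin transport, measured 7.93 to 8.15 in adult hepatocytes, 7.41 to 7.58 in OC.2- cells and 7.47 to 7.53 in OC.2+ cells, and its fetal groups differed by 0.02 ± 0.08 (adjusted p = 0.906). It was picked for this contrast after its values were seen.

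The promoter stretch of Abcb10 is shown as that of the member with the largest rise. Its 250 bases hold none of the 3 elements searched, which says only that these letters are not in this window. It lies in GRCr8 at chr19:68880204-68880453, minus strand, printed 5′ to 3′ along the gene.
Abcb10: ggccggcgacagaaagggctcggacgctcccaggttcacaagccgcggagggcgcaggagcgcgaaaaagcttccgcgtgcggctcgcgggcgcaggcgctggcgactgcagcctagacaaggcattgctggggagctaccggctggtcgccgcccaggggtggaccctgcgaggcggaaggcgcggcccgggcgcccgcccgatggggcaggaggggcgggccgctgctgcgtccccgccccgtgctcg

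Of 8 genes of mitochondrial iron import and haem synthesis, 6 were higher and 0 lower in OC.2+ compared with OC.2- cells, and 4 were higher and 3 lower in OC.2- cells than in adult hepatocytes. The latter balance turned with the scaling, to 3 higher and 4 lower with median centring or cyclic loess, and was 4 and 2 with quantile normalization. Higher calls made up 20.3% of all genes between the fetal groups and 23.7% in OC.2- cells against adult hepatocytes. Slc25a37, the iron importer that Abcb10 is known to stabilise, measured 6.98, 6.97 and 7.02 in adult hepatocytes, 9.39, 9.32 and 9.56 in OC.2- cells and 11.11, 11.12 and 11.21 in OC.2+ cells. The groups ascended without overlap. It was 5.41-fold higher in OC.2- cells than in adult hepatocytes (adjusted p = 8.52e-11) and 3.29-fold higher in OC.2+ compared with OC.2- cells (adjusted p = 2.55e-09). Alas2, the erythroid first enzyme of haem synthesis, was 3.30-fold higher in OC.2+ compared with OC.2- cells (adjusted p = 5.28e-08) and Fech, the last enzyme, 3.57-fold higher (adjusted p = 6.18e-09). The erythroid marker sums rose along the same groups, and Alas2 is itself on that marker list.

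The peroxisomal ABCD transporters, which carry fatty acyl groups into the organelle, differed in direction between OC.2- cells and adult hepatocytes, while both were lower in OC.2+ compared with OC.2- cells. Abcd3, the carrier of branched-chain and bile acid precursors, measured 10.14, 9.95 and 10.16 in adult hepatocytes, 8.28, 8.35 and 8.04 in OC.2- cells and 6.95, 7.05 and 7.22 in OC.2+ cells. The groups descended without overlap, by 3.63-fold from adult to OC.2- (95% interval 3.10 to 4.24, adjusted p = 1.15e-08) and 2.22-fold from OC.2- to OC.2+ cells (95% interval 1.90 to 2.60, adjusted p = 1.12e-06). Abcd2, a carrier of very long-chain and polyunsaturated acyl groups, measured 5.23, 5.77 and 5.45 in adult hepatocytes, 7.06, 7.22 and 6.83 in OC.2- cells and 5.90, 5.73 and 5.93 in OC.2+ cells. It was high on the OC.2- arrays, while adult and OC.2+ arrays overlapped below the array medians. It was 2.94-fold higher in OC.2- cells than in adult hepatocytes (95% interval 2.39 to 3.60, adjusted p = 8.06e-07) and 2.28-fold lower in OC.2+ compared with OC.2- cells (95% interval 1.86 to 2.79, adjusted p = 1.02e-05). The endothelial, stellate and macrophage marker sums were likewise highest on the OC.2- arrays, and their part was not tested. The difference of Abcd2 between OC.2+ cells and adult hepatocytes, 0.37 ± 0.14 (adjusted p = 0.0352), ended under each of the 3 other scalings (adjusted p = 0.190 to 0.237). It also ended without adult replicate 1 (adjusted p = 0.159), adult replicate 3 (adjusted p = 0.0849), or when OC.2+ replicate 1 (adjusted p = 0.0962) or replicate 3 (adjusted p = 0.112) was left out.

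Abcd4, which serves lysosomal release of cobalamin, had only 3 distinct values over the 9 arrays, and its differences were at most 0.05 in size. Among 12 measured peroxins, the import and assembly proteins of peroxisomes, 10 were lower and 1 higher in OC.2- cells than in adult hepatocytes, and 8 were lower and 0 higher in OC.2+ compared with OC.2- cells. Of all genes, 20.9% were lower and 23.7% higher in the former comparison, and 18.2% and 20.3% in the latter. The 10 and 1 became 9 and 1 after quantile normalization, 11 and 0 after median centring and 11 and 1 after cyclic loess. Pex13, of the import pore, was 2.00-fold (adjusted p = 4.39e-07) and 1.91-fold (adjusted p = 8.71e-07) lower in these comparisons. Pex2 was 1.64-fold (adjusted p = 9.93e-05) and Pex6 1.58-fold (adjusted p = 1.95e-05) lower in OC.2+ compared with OC.2- cells.

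**Figure D3:**
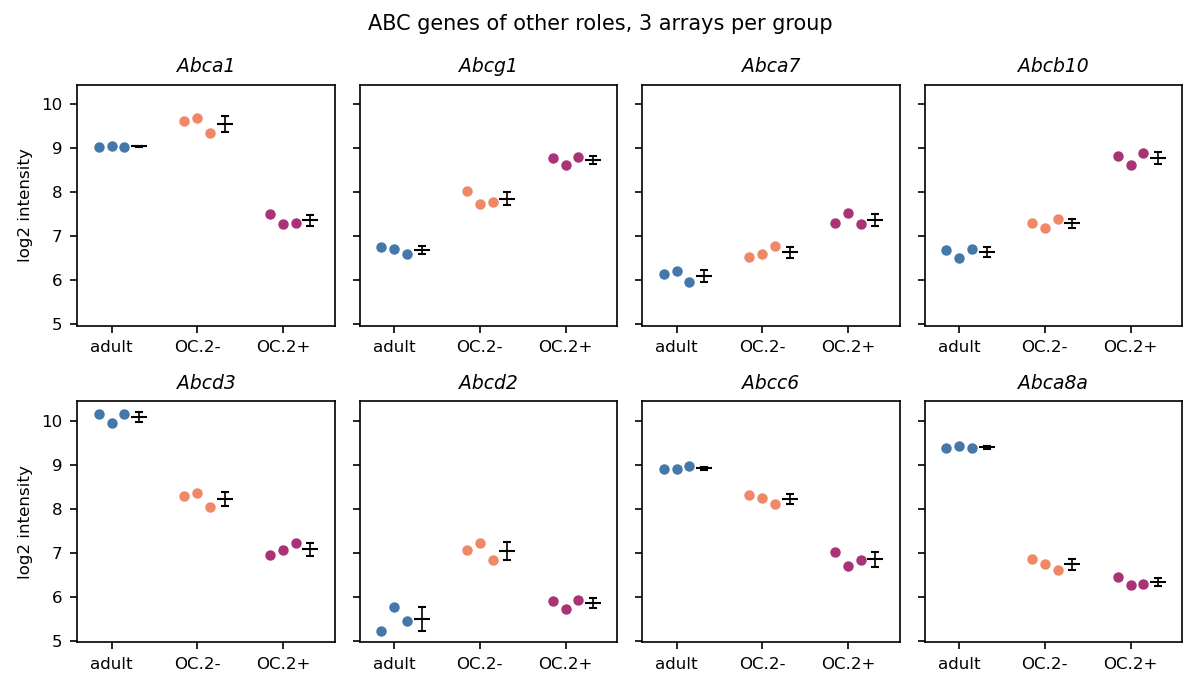
Log2 intensity (vertical axis) of 8 ABC genes of other roles in adult, OC.2- and OC.2+ preparations, with 1 point per array and the mean ± SD of 3 arrays beside them. Abcg1, Abca7 and Abcb10 ascend over the 3 groups, Abcd3, Abcc6 and Abca8a descend, and Abca1 and Abcd2 are highest in OC.2- cells.

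The soluble members changed little in size. Of the 4 measured, 2 were higher and 0 lower in OC.2+ compared with OC.2- cells, and 0 were higher and 3 lower in OC.2- cells than in adult hepatocytes, all by less than 2-fold. Over all genes the shares were 20.3% higher and 18.2% lower, and 23.7% and 20.9%. After quantile normalization 1 was lower in the latter comparison. The call of Abcf2 there, -0.26 ± 0.09 (adjusted p = 0.0256), ended under 6 of 16 alternatives. Averaging its probe sets was among them (adjusted p = 0.169). Abce1, the ribosome recycling factor, named here after its values were seen, measured 8.76, 8.82 and 8.84 in adult hepatocytes, 8.56, 8.58 and 8.30 in OC.2- cells and 9.23, 9.28 and 9.38 in OC.2+ cells. The OC.2+ arrays were highest, 1.77-fold above OC.2- cells (95% interval 1.54 to 2.02, adjusted p = 6.65e-06). Its fall from adult to OC.2- cells, -0.33 ± 0.09 (adjusted p = 0.00882), ended after quantile normalization, at -0.11 (adjusted p = 0.322).

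Some ABC proteins carry symbols of another form and are not among the 43 genes. Tap1 and Tap2, which load peptides for antigen presentation, were 1.48-fold (adjusted p = 0.00102) and 1.50-fold (adjusted p = 0.00431) higher in OC.2+ compared with OC.2- cells. In OC.2- cells they were 1.91-fold (adjusted p = 1.35e-05) and 1.54-fold (adjusted p = 0.00269) lower than in adult hepatocytes. Cftr, the chloride channel of bile duct cells, lay between 5.90 and 6.36 on all 9 arrays and its fetal groups differed by 0.03 ± 0.09 (adjusted p = 0.860). Cftr was 1.18-fold higher in OC.2- cells than in adult hepatocytes (adjusted p = 0.0427), a call that each of the 3 other scalings ended.

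**Figure D4:**
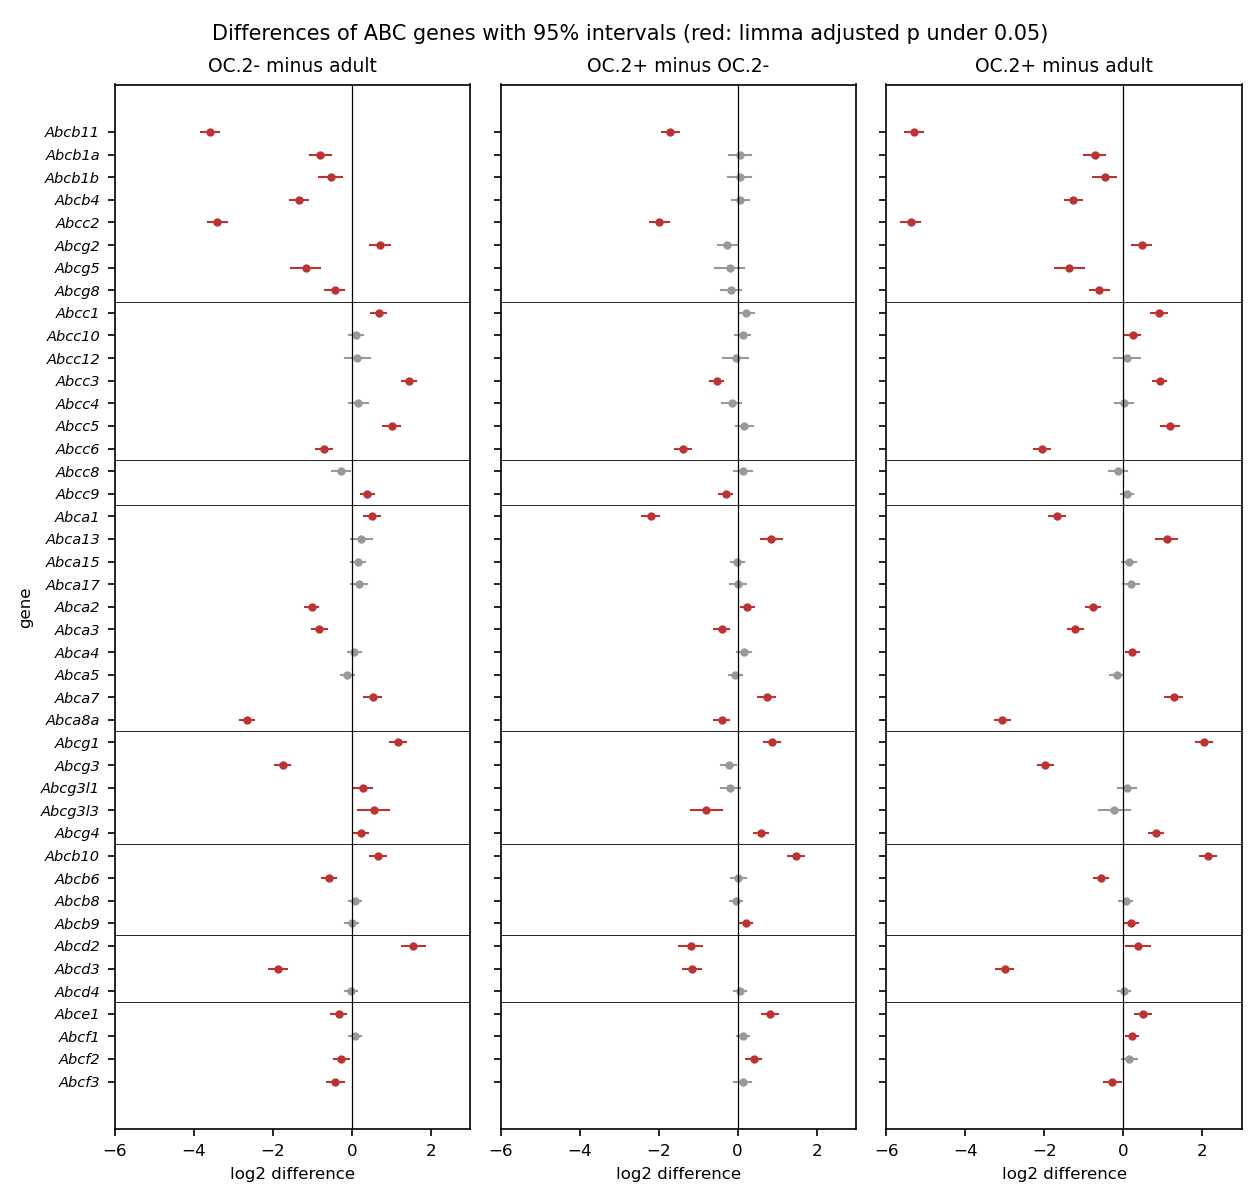
Log2 difference (horizontal axis) of each of the 43 genes in OC.2- cells against adult hepatocytes, OC.2+ against OC.2- cells and OC.2+ cells against adult hepatocytes, with 95% intervals and called genes in red. Differences run from -5.39 (Abcc2) to 2.14 (Abcb10), both in OC.2+ cells against adult hepatocytes.

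A dim group closed the family. The 9 genes Abca4, Abca5, Abca15, Abca17, Abcb9, Abcc8, Abcc12, Abcg3l1 and Abcg3l3 had no group mean above 6.42, the median of all rows and arrays, and the other 34 genes passed that filter. Members not called differed by at most 0.26 between the fetal groups, and against adult hepatocytes by at most 0.27 in OC.2- cells and 0.24 in OC.2+ cells.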

How the data were processed

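The authors deposited linear intensity values, 1 column per array and 28826 rows. RMA and Partek 6.6 appear, without a stated role, per the submitters' processing notes. Not given in the sources used here is the genome build. RMA as usually run makes array distributions alike, which can remove a shift common to most genes and shrinks folds of dim genes. Median intensity was 79.5 to 81.0 on adult and 86.5 to 89.7 on fetal arrays, so the other scalings are reported. The number of arrays limits the precision (median SE of a log2 difference 0.095).

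A probe annotation table gave 15209 rows 1 symbol, 306 several and 13311 none. Gene IDs of all 43 members were found in the current table (GRCr8, names and neighbours only). The probe set with the highest mean stood for a gene, and log2 of the deposited intensities was fitted with lmFit and eBayes of limma 3.58.1 (R 4.3.3) over all 9 arrays (6 residual degrees of freedom). P-values are 2-sided and adjusted over all 14497 genes. The fit was also run on simulated data with few changed genes and independent noise. That setting differs from these data and does not bear on the calls reported here. The members and lists were chosen with earlier results of these data known. Named were all canalicular members, up to 6 members per other role list called at least 2-fold in some comparison, and up to 3 partners per list by the size of their difference between the fetal groups. Nr1h4, Slc10a1, Atp8b1, Tap1, Tap2, Cftr, albumin and Hnf4a were named whatever their values. Outside this rule, Abcb6, Abcb8, Abcb9, Abcc1, Abcc4, Abcc8, Abcc9, Abcc10, Abcd4, Abce1, Abcf2, Nr1h3 and the members in the closing observations were named after their values were seen. Alternatives were 3 scalings, averaging a gene's probe sets, a filter on dim genes, fits of only the groups compared, a block for the replicate number and leaving out each array.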

Additional observations from a re-analysis of the deposited data

How the results depend on the processing

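Over 16 alternatives no called difference of an ABC gene changed sign. Between the fetal groups 18 of 20 called members passed under every alternative that gave a value. Against adult hepatocytes the numbers were 25 of 30 for OC.2- and 25 of 31 for OC.2+ cells. In OC.2+ cells against adult hepatocytes, 48.4% of the called members were higher, but 35.7% with median centring or cyclic loess (10 higher and 18 lower each) and 41.4% with quantile normalization (12 and 17). The median of all genes in that comparison was 0.11 as deposited, 0.00 when quantile normalized and -0.03 with either of the other scalings. Leaving out 1 array gave 7 to 9 higher and 11 to 13 lower between the fetal groups, 10 to 13 and 16 to 17 for OC.2- cells and 10 to 16 and 15 to 16 for OC.2+ cells, both against adult hepatocytes. Replicate numbers are shared by the groups. Deviations from group means correlated at -0.23 to 0.11 for the 9 pairs of equal number and at -0.16 to 0.29 for other pairs. In both other groups, 0 arrays correlated best with their own number. With 3 arrays per group, these values cannot decide whether preparations of equal number share animals. With the replicate number as a block the counts were 8 and 11, 12 and 17, and 13 and 16, in the order above. The filter on dim genes left 34 members with a value. The number of arrays and the absence of a detection call limit statements on dim genes.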

Other observations

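Members that neighbour each other in the rat gene table (GRCr8, used for order only) did not always keep the same order of groups. Abcb4, Abcb1b and Abcb1a stand next to each other, and all 3 were lower in both fetal groups than in adult hepatocytes, by 1.34, 0.53 and 0.79 log2 units in OC.2- cells. Abca3 and its neighbour Abca17 differed: OC.2+ cells minus adult hepatocytes was -1.22 ± 0.09 for Abca3 and 0.19 ± 0.09 for Abca17 (limma adjusted p = 0.087), which was dim on all arrays. Abcg3 and its neighbour Abcg3l3 differed in OC.2- cells against adult hepatocytes, at -1.75 ± 0.09 and 0.56 ± 0.18 (limma adjusted p = 3.33e-09 and 0.0229). The call of Abcg3l3 ended under the 3 other scalings and without adult replicate 1 or 2 or OC.2- replicate 1 or 2 (adjusted p = 0.0537 to 0.0925), and its OC.2- arrays spread from 5.54 to 6.47. No cause was tested.

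Probe sets of 1 gene were compared for the 3 members that have several. The 2 of Abcc9 gave -0.30 ± 0.07 and -0.46 ± 0.10 in OC.2+ against OC.2- cells, and the 2 of Abcf2 gave 0.41 ± 0.09 and 0.20 ± 0.13. The 3 of Abcc4 gave -0.15 ± 0.11, 0.36 ± 0.11 and 0.08 ± 0.07 in the same comparison. Against adult hepatocytes the 2 of Abcc9 gave 0.39 ± 0.07 and 0.19 ± 0.10 in OC.2- cells. In OC.2+ cells they gave 0.09 ± 0.07 and -0.27 ± 0.10. The 2 of Abcf2 gave -0.26 ± 0.09 and -0.05 ± 0.13 in OC.2- cells against adult hepatocytes.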
